A study of Mus musculus with 23 samples.

Results

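The genes described here are 10 genes for the recognition and uptake of dying cells and debris, chosen by symbol from a fixed list and matched to the gene identifiers of GRCm38. They are the TAM receptor tyrosine kinases Mertk, Axl and Tyro3, the TAM ligands Gas6 and Pros1, the bridging protein Mfge8, the engulfment receptors Megf10, Stab1 and Stab2, and the engulfment adaptor Gulp1. All 10 were found among the 43068 genes listed for the crush experiment and the 22880 genes listed for the inducible knockout (iKO) experiment.

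Sciatic nerves (SNs) of mice were measured by RNA sequencing in 7 groups. In the crush experiment, nerves of 2-month-old wild-type male C57bl6 mice were taken 3 days post crush (dpc), as a 7 mm piece lying 1 to 8 mm distal to the crush (n = 4), beside the uninjured contralateral nerves (n = 4) and uncrushed surgery control nerves (n = 3). In the iKO experiment, nerves of P0-CreERT2 -/+ Dicer1 flox/flox (Dicer iKO) and P0-CreERT2 -/+ Dgcr8 flox/flox (Dgcr8 iKO) mice were compared with P0-CreERT2 -/- controls carrying the same floxed alleles (n = 3 in each of the 4 groups, C57bl6 background). Dicer1 and Dgcr8 encode proteins of microRNA processing, and the Cre is driven by a promoter of myelin protein zero, which is active in myelinating Schwann cells (SCs). All mice of the iKO experiment, controls included, received tamoxifen on 5 consecutive days at 8 to 10 weeks of age and were analysed 3 months post tamoxifen (mpT). The mutants had been preselected for affected nerve morphology, because recombination effects were incompletely penetrant. Each library held RNA of a whole nerve piece, in which fewer cells of a type and less RNA per cell cannot be told apart. The labels do not say which equal numbers mark the same mouse, so p-values measure the spread between these nerves.

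TAM receptors do not bind dying cells directly. Gas6 and Pros1 carry vitamin K-dependent Gla domains that hold phosphatidylserine exposed on dying cells and on myelin debris, and their other end activates the receptors. Axl responds to Gas6, while Mertk and Tyro3 also respond to Pros1. In injured nerve, SCs and incoming macrophages both remove myelin, and Axl and Mertk are known from both kinds of cells.

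Total counts ranged from 6617716 to 12806066 per library in the crush experiment and from 5594859 to 10143244 in the iKO experiment. A level of 3 counts, taken as the lowest that can be shown, equals 0.234 to 0.453 and 0.296 to 0.536 CPM (counts scaled to a common library size), and covers counting error only. The gene totals of the targeted genes were not called different between mutants and controls, though Dicer1 was lower in each Dicer iKO nerve than in each of its controls. Dicer1 lay at 81.0, 82.8 and 82.4 CPM in Dicer iKO and at 88.0, 88.4 and 91.0 CPM in their controls (log2 fold change -0.11, SE 0.08, adjusted p = 0.357, edgeR quasi-likelihood test). Dgcr8 lay at 39.3, 53.7 and 41.7 CPM in Dgcr8 iKO and at 38.2, 34.9 and 41.9 CPM in their controls (log2 fold change 0.22, SE 0.15, adjusted p = 0.233). These totals include reads outside the deleted exons and reads of all other cells of the nerve, so they check neither deletion. Defining markers of SCs were present throughout, with 3 lineage genes summing to 248 CPM or more in every library. The contents of the Dicer control nerves varied. Fibroblast markers summed to 11333, 8518 and 3802 CPM and macrophage markers to 1168, 759 and 392 CPM in the Dicer control replicates 1, 2 and 3, against 4101 to 5181 and 380 to 454 CPM in the Dgcr8 controls.

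Levels of a gene are given as CPM normalized by TMM within an experiment, and levels are set side by side between genes only as FPKM, which is scaled by transcript length. In uncrushed nerves Gulp1 had the highest level of the 10, at 54.0 ± 11.3 FPKM (SD, n = 3). Axl (22.5 ± 1.83), Stab1 (20.3 ± 6.52), Mertk (15.6 ± 1.71) and Pros1 (11.8 ± 1.75 FPKM) followed, each overlapping its neighbour in this order. Mfge8 and Gas6 lay at 7.79 ± 0.82 and 7.76 ± 1.24 FPKM, and Megf10, Tyro3 and Stab2 were the lowest, at 1.26 ± 0.07, 0.95 ± 0.47 and 0.44 ± 0.36 FPKM. At 3 dpc the order was different. Axl came first with 120.5 ± 24.6 FPKM (SD, n = 4), overlapping Stab1 (86.5 ± 22.4) which in turn overlapped Pros1 (70.4 ± 5.04 FPKM), while Gulp1, first in uncrushed nerves, lay below each of these 3 without overlap at 35.4 ± 4.23 FPKM. Megf10 reached 18.4 ± 1.77 FPKM and lay above Mfge8 and Gas6, which it had been below in uncrushed nerves. FPKM also depends on how counts were divided between transcripts of unequal length. At 3 dpc a Stab1 transcript of 2427 bases held 19.91% of its counts, beside 63.65% on one of 7999 bases. A Gulp1 transcript of 1399 bases held 42.41%, and the main Axl transcript 80.11%. The places of these 3 genes in the order rest partly on this division, which was not tested.

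**Figure D1:**
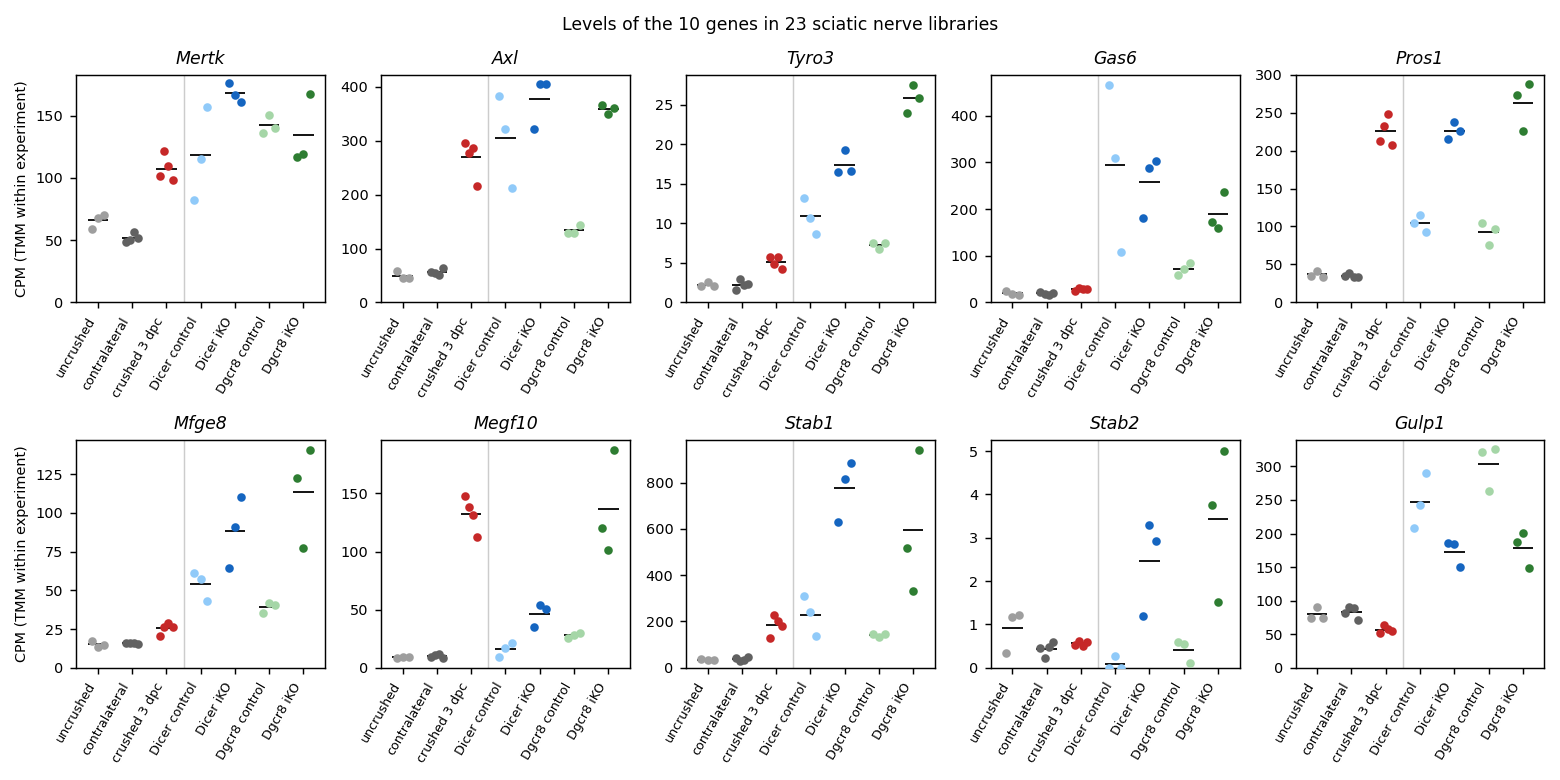
Levels of the 10 genes in all 23 libraries. Each point is 1 library, the y axes give CPM normalized by TMM within an experiment, the bars mark group means, and the grey line separates the crush from the iKO experiment. Axl, Pros1, Megf10 and Stab1 at 3 dpc lie apart from both control groups, and Gas6 in the Dicer controls spreads from 107 to 466 CPM.

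The crush comparisons ask which of the genes respond to nerve injury. Against uncrushed nerves, 9 of the 10 genes passed the filter on counts, and 5 of them (Axl, Tyro3, Pros1, Megf10 and Stab1) were called higher at 3 dpc, at an adjusted p of at most 0.05 and a fold change of at least 2. Among all 17433 genes tested, 15.3% were called higher and 21.1% lower. Against contralateral nerves the calls fell on the same 5 genes, beside 14.6% of 16667 genes called higher and 13.6% called lower. No gene of the 10 was called lower in either comparison. The median log2 fold change of the 9 genes tested was 1.06 and 1.02, against -0.03 and -0.06 over all genes tested. Both comparisons share the 4 crushed nerves. Separation without overlap was common among all genes tested. Every crushed nerve lay above every uncrushed nerve for 37.3% of genes and below for 28.0%. Against contralateral nerves the shares were 35.5% above and 23% below.

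Of the 3 receptors, Axl had the largest log2 fold change. It lay at 296.2, 278.1, 287.2 and 216.4 CPM in the 4 crushed nerves. The uncrushed nerves had 57.5, 46.2 and 45.8 CPM and the contralateral nerves 55.8, 54.1, 50.7 and 63.2 CPM. Every crushed nerve thus lay above every control nerve, with log2 fold changes of 2.31 (SE 0.13, adjusted p = 1.69e-08) against uncrushed and 2.13 (SE 0.10, adjusted p = 1.39e-10) against contralateral nerves. Mertk, the receptor best known from macrophages, had 101.4, 121.3, 109.2 and 97.8 CPM at 3 dpc, 59.1, 67.8 and 70.4 CPM in uncrushed nerves and 48.4, 50.5, 56.5 and 51.3 CPM in contralateral nerves. The groups did not overlap, but the log2 fold changes of 0.59 (SE 0.10, adjusted p = 0.000248) and 0.92 (SE 0.08, adjusted p = 8.66e-08) stayed under the 2-fold limit. Tyro3 was scarce in all 3 groups, with 42 to 65 counts in the crushed and 14 to 38 counts in the control libraries. It reached 4.21 to 5.69 CPM at 3 dpc against 1.56 to 2.96 CPM in control nerves. Its log2 fold changes of 1.06 (SE 0.22, adjusted p = 0.000965) and 1.02 (SE 0.21, adjusted p = 0.000595) lay just past the limit. Against uncrushed nerves the Tyro3 call was lost without crushed replicate 1 (log2 fold change 0.97) or 3 (0.999), and against contralateral nerves without crushed replicate 1 (0.94) or 3 (0.94) or contralateral replicate 1 (0.88).

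The ligands follow. Pros1, which encodes protein S, also a cofactor of the anticoagulant protein C, had 213.2, 232.8, 248.6 and 207.7 CPM at 3 dpc. Uncrushed nerves had 35.2, 42.0 and 33.3 CPM and contralateral nerves 34.5, 38.4, 33.9 and 33.1 CPM, all far below the crushed nerves. The log2 fold changes were 2.49 (SE 0.11, adjusted p = 2.67e-09) and 2.55 (SE 0.08, adjusted p = 4.21e-12). Gas6 had 23.5, 30.3, 28.7 and 29.4 CPM at 3 dpc, 23.6, 18.2 and 16.6 CPM in uncrushed and 22.7, 18.5, 16.9 and 19.7 CPM in contralateral nerves. A single uncrushed nerve lay above the lowest crushed nerve, and the log2 fold changes of 0.39 in both comparisons (SE 0.14 and 0.11, adjusted p = 0.0251 and 0.00744) did not reach 2-fold.

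Of the engulfment receptors, Megf10, a receptor with EGF-like repeats by which astrocytes take up synapses, showed the largest log2 fold change of the 10 genes in both crush comparisons. It had 148.1, 138.3, 131.8 and 112.2 CPM at 3 dpc, 8.03, 9.53 and 9.46 CPM in uncrushed and 9.09, 10.8, 11.5 and 8.47 CPM in contralateral nerves. No crushed nerve overlapped a control nerve, and the log2 fold changes were 3.77 (SE 0.13, adjusted p = 3.05e-10) and 3.59 (SE 0.11, adjusted p = 2.68e-12). Stab1, a scavenger receptor of macrophages and sinusoidal endothelium, had 128.4, 229.7, 203.7 and 182.1 CPM at 3 dpc, 37.3, 33.6 and 33.0 CPM in uncrushed and 41.7, 27.8, 32.9 and 47.7 CPM in contralateral nerves, with log2 fold changes of 2.30 (SE 0.17, adjusted p = 2.03e-07) and 2.17 (SE 0.17, adjusted p = 5.20e-08). The crushed nerve with the lowest Stab1, replicate 1, also had the lowest sum of the 10 macrophage markers (940 CPM, against 1629 to 2055 CPM in the other 3), and it had the highest Axl and Megf10 of the 4. It had the lowest Gas6, Mfge8 and Gulp1 as well. Stab2, the related hyaluronan receptor of sinusoidal endothelium, had 3 to 10 counts in each of the 11 crush libraries, too few to be tested.

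The bridging protein Mfge8, which links phosphatidylserine to integrins, had 20.4, 26.4, 28.9 and 26.0 CPM at 3 dpc and 13.2 to 17.3 CPM in control nerves. The groups did not overlap, and the log2 fold changes were 0.63 (SE 0.14, adjusted p = 0.00189) and 0.54 (SE 0.11, adjusted p = 0.000489), under the 2-fold limit. Gulp1, an adaptor that binds the intracellular tails of engulfment receptors, was the only one of the 9 genes tested with a negative log2 fold change. It had 51.2, 64.0, 58.1 and 54.2 CPM at 3 dpc, 74.8, 90.1 and 73.6 CPM in uncrushed and 82.0, 89.8, 89.0 and 71.6 CPM in contralateral nerves. Each crushed nerve lay below each control nerve. The log2 fold changes of -0.60 (SE 0.10, adjusted p = 0.000251) and -0.69 (SE 0.09, adjusted p = 1.01e-05) were also under the 2-fold limit.

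Contralateral and uncrushed nerves were compared to see whether the 10 genes differ between the 2 kinds of control nerve. None of the 9 genes tested was called by edgeR's quasi-likelihood test, beside 0% of 17722 genes called higher and 0% called lower, where 1005 and 2160 genes had an unadjusted p under 0.05 in the 2 directions and DESeq2 called 0 and 31. Mertk was lower in every contralateral than in every uncrushed nerve (log2 fold change -0.42, SE 0.09, unadjusted p = 0.000721, adjusted p = 0.110). Of all genes tested, 7.18% were likewise below in every library. The log2 fold changes of the other 8 genes lay between -0.15 and 0.09.

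The marker lists moved with the crush. Of 10 macrophage markers, 9 were called higher against either control, and their sum was 940 to 2055 CPM at 3 dpc against 137 to 250 CPM in control nerves. All 10 macrophage markers were detected in each group. Of the 4 repair SC markers tested (of 5), 4 were called higher, with sums of 1503 to 2214 CPM against 58.0 to 79.3 CPM. Of 7 myelinating SC markers, 6 were called lower, with sums of 1943 to 3014 CPM against 35942 to 54793 CPM. Fibroblast markers overlapped between crushed and control nerves (1961 to 2424 against 2341 to 3168 CPM). So did the summed endothelial markers (276.3 to 330.3 against 223.5 to 282.8 CPM), of which 2 of 6 (Tek and Cdh5) were called higher against either control. Lyve1, Prox1 and Flt4, markers of lymphatic or sinusoidal endothelium, summed to 32.3 to 48.2 CPM at 3 dpc against 9.80 to 19.5 CPM. Of the 3, only Lyve1 was called higher (log2 fold changes 1.81 against uncrushed and 2.27 against contralateral nerves). Prox1 (-0.37 and 0.17) and Flt4 (-0.26 and -0.38) were not called. Neutrophil markers were scarce, at 10.4 to 23.9 CPM in sum at 3 dpc against 0.235 to 0.854 CPM. The summed perineurial markers (113.0 to 132.5 against 291.3 to 452.5 CPM) and SC lineage markers (248.3 to 325.6 against 658.6 to 981.6 CPM) were lower in each crushed than in each control nerve. Of 3 perineurial markers 1 (Itgb4) was called lower against either control, while Cldn1 had log2 fold changes of 0.46 and 0.78, not called. Of 3 lineage markers, 1 was called lower against uncrushed and 2 against contralateral nerves. T cell markers stayed at 4.89 CPM or less in all 11 libraries. What part these cell contents have in the values of the 10 genes was not tested.

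**Figure D2:**
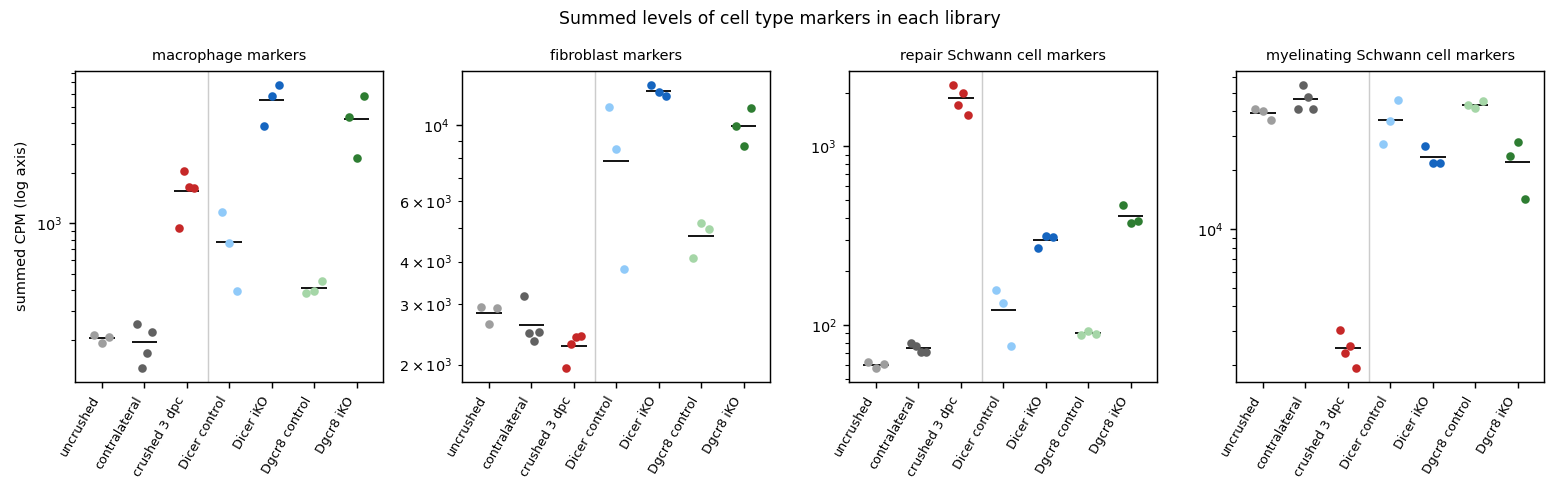
Summed CPM of marker genes for 4 cell types in each of the 23 libraries, on log axes, with bars at group means. Macrophage and repair SC markers are higher at 3 dpc and in both mutants, and the 3 Dicer controls spread widely in fibroblast and macrophage markers.

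The iKO comparisons ask whether the same genes move when microRNA processing is lost in myelinating SCs without a lesion. In Dgcr8 iKO nerves all 10 genes passed the filter, but Stab2 only through its level in the mutants, so it is given by its counts and is left out of the count and the median here. Of the other 9 genes, 7 were called higher than in controls. Of 13252 genes tested, 13.4% were called higher and 6.99% lower. The exceptions among the 9 were Mertk and Gulp1. In Dicer iKO nerves 9 genes were tested and 3 of them (Pros1, Megf10 and Stab1) were called higher, beside 7.37% of 13045 genes called higher and 1.64% called lower. The median log2 fold change of these 9 genes was 1.502 in Dgcr8 iKO and 0.69 in Dicer iKO, against -0.01 over all genes in each. Of all genes tested, 29.1% lay higher in every Dgcr8 iKO nerve than in every control, and 21.7% did so in the Dicer line.

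**Figure D3:**
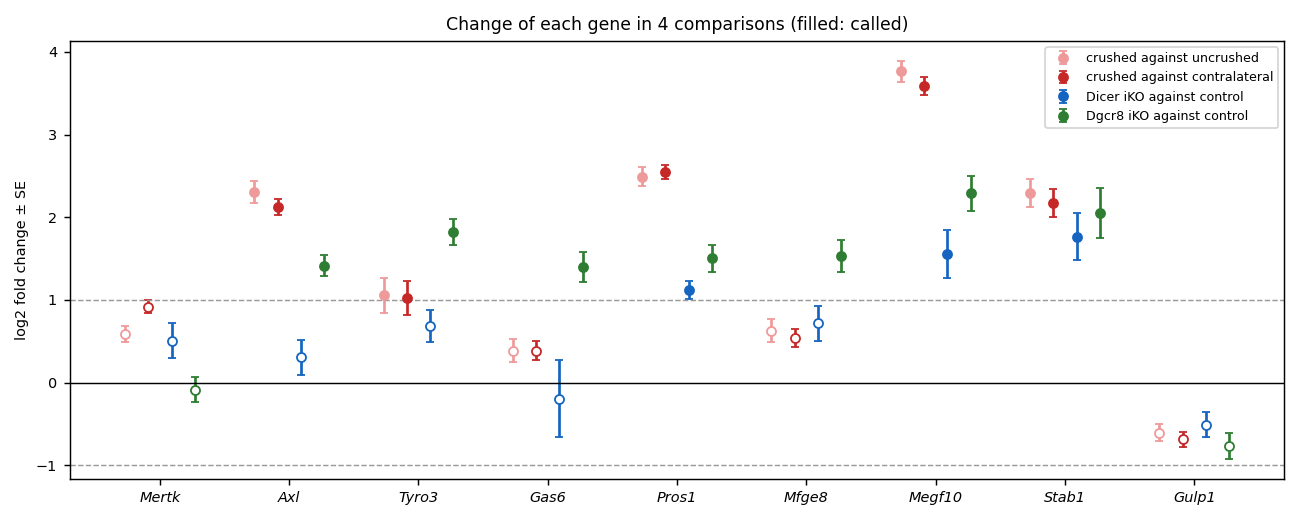
Log2 fold changes of 9 of the 10 genes in 4 comparisons, with bars of 1 SE. Filled points were called (adjusted p of at most 0.05 and at least 2-fold), open points were not, and the dashed lines mark 2-fold. Pros1, Megf10 and Stab1 were called in all 4 comparisons, Mertk and Gulp1 in none. Stab2, with few counts, is not drawn.

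Axl stood at 366.9, 350.3 and 360.2 CPM in Dgcr8 iKO and at 129.4, 128.5 and 144.6 CPM in their controls (log2 fold change 1.42, SE 0.13, adjusted p = 1.26e-05). In the Dicer line it had 321.1, 405.1 and 405.0 CPM in the mutants, but 383.9, 321.7 and 211.9 CPM in the controls, so that the groups overlapped (0.31, SE 0.21, adjusted p = 0.343). The Dicer controls spread over a wider range than the Dgcr8 controls. Tyro3 had 24.0, 27.5 and 25.9 CPM in Dgcr8 iKO against 7.53, 6.70 and 7.48 CPM (log2 fold change 1.83, SE 0.15, adjusted p = 8.87e-06), the largest change of the 3 receptors in that line. In Dicer iKO it had 16.4, 19.3 and 16.6 CPM against 13.2, 10.7 and 8.69 CPM, with no overlap but a change under 2-fold (0.69, SE 0.19, adjusted p = 0.0390). Mertk had 116.9, 119.0 and 167.6 CPM in Dgcr8 iKO against 135.9, 150.5 and 140.0 CPM (-0.08, SE 0.15, adjusted p = 0.680). In Dicer iKO it had 176.5, 166.2 and 160.7 CPM against 82.5, 115.1 and 157.2 CPM (0.51, SE 0.21, adjusted p = 0.125).

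Pros1 was called higher in both lines. It had 273.3, 225.9 and 287.4 CPM in Dgcr8 iKO against 104.0, 75.2 and 97.3 CPM, and 215.5, 237.8 and 225.3 CPM in Dicer iKO against 105.2, 114.9 and 92.9 CPM. The log2 fold changes were 1.502 (SE 0.16, adjusted p = 3.43e-05) and 1.12 (SE 0.11, adjusted p = 0.00182). Gas6 had 173.3, 160.4 and 237.5 CPM in Dgcr8 iKO against 59.2, 71.6 and 84.6 CPM (1.40, SE 0.18, adjusted p = 0.000113). In the Dicer line the controls ranged over 466.1, 310.2 and 107.3 CPM and enclosed the mutants at 180.9, 288.8 and 302.3 CPM (-0.19, SE 0.46, adjusted p = 0.793). The Dicer control with the highest Gas6 and Axl, replicate 1, had the lowest Mertk and the highest fibroblast, macrophage and perineurial marker sums of the 3, and replicate 3 had the reverse. Without Dicer control replicate 3 the log2 fold change of Gas6 was -0.59 and without replicate 1 it was 0.31, so the sign depends on 1 library.

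Megf10 had 120.2, 101.4 and 187.2 CPM in Dgcr8 iKO against 25.2, 27.9 and 30.2 CPM (log2 fold change 2.29, SE 0.21, adjusted p = 1.50e-05). In Dicer iKO it had 35.1, 53.7 and 50.5 CPM against 9.33, 16.7 and 21.5 CPM (1.55, SE 0.29, adjusted p = 0.0113), and this call was lost without Dicer control replicate 2 (adjusted p = 0.051), Dicer iKO replicate 2 (0.055) or Dicer iKO replicate 3 (0.059). Stab1 had 516.8, 329.6 and 939.2 CPM in Dgcr8 iKO against 134.7 to 147.2 CPM (2.05, SE 0.31, adjusted p = 0.000313), and 631.1, 815.4 and 886.4 CPM in Dicer iKO against 139.0 to 309.2 CPM (1.77, SE 0.28, adjusted p = 0.00680). The Dgcr8 iKO nerve with the lowest Stab1, replicate 2, also had the lowest macrophage marker sum of that group (2475 against 4328 and 5822 CPM). This nerve was also the lowest of its group in Axl, Gas6, Pros1, Mfge8, Megf10, Stab2 and the fibroblast and repair SC marker sums. It was the highest in Tyro3 and Gulp1. Stab2 had few counts in every library, with 32, 16 and 43 counts in Dgcr8 iKO against 5, 4 and 1. The ratio of the summed counts, corrected for depth, was 9.09 (exact 95% interval from 4.73 to 19.6). In the Dicer line it had 9, 19 and 21 counts against 0, 2 and 0. There the ratio was 27.6 (7.25 to 234.4), and Stab2 did not pass the filter. Both intervals cover counting error only.

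Mfge8 had 122.5, 77.6 and 140.8 CPM in Dgcr8 iKO against 35.7, 41.6 and 40.3 CPM (log2 fold change 1.53, SE 0.20, adjusted p = 0.000120). In Dicer iKO it had 64.6, 90.6 and 110.0 CPM against 61.4, 57.1 and 43.0 CPM, again without overlap but under 2-fold (0.72, SE 0.21, adjusted p = 0.0472). Gulp1 was lower in every mutant nerve than in every control nerve of its line, with 188.0, 201.0 and 148.5 CPM against 263.8 to 325.9 CPM in the Dgcr8 line and 185.2, 183.8 and 149.7 CPM against 207.9 to 290.3 CPM in the Dicer line. The log2 fold changes of -0.77 (SE 0.16, adjusted p = 0.00220) and -0.51 (SE 0.15, adjusted p = 0.0482) stayed under 2-fold. Over all genes tested, 26.8% and 20.2% were below in every library of the mutant in the respective line.

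Axl, Tyro3, Gas6 and Mfge8 were called in Dgcr8 iKO and not in Dicer iKO, and the difference of the 2 effects was therefore tested over the 12 iKO libraries. None of the 10 genes passed an adjusted p of 0.05 in edgeR's quasi-likelihood test, where 0.00738% of 13552 genes were called in each direction. The differences with an unadjusted p under 0.05 were those of Tyro3 (1.14, SE 0.23, adjusted p = 0.118), Axl (1.11, SE 0.25, adjusted p = 0.141), Gas6 (1.60, SE 0.55, adjusted p = 0.239) and Mfge8 (0.82, SE 0.32, adjusted p = 0.297), all larger in Dgcr8 iKO. DESeq2's Wald test called Axl (adjusted p = 0.0047) and Tyro3 (0.0055). Without Dicer control replicate 3, edgeR called Axl (0.0044), Tyro3 (0.0098) and Gas6 (0.0091), together with 320 genes higher and 81 lower in place of 1 and 1. The calls thus depend on both the test used and Dicer control replicate 3.

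Marker lists moved in the mutants too. Of 10 macrophage markers, 8 were called higher and 1 (Cd163) lower in Dgcr8 iKO, and 7 were called higher in Dicer iKO. Their sum was 2475 to 5822 CPM in Dgcr8 iKO and 3817 to 6772 CPM in Dicer iKO, against 380 to 1168 CPM over the 6 controls. The 4 repair SC markers tested were called higher in both lines. Of 7 myelinating SC markers, 3 were called lower in Dgcr8 iKO and 0 in Dicer iKO by edgeR, with sums of 14251 to 27825 CPM against 41660 to 45072 CPM and of 21735 to 26682 CPM against 27074 to 45787 CPM. Of 5 fibroblast markers, 3 were called higher in Dgcr8 iKO and 2 in Dicer iKO. Beside Stab2, the summed Lyve1, Prox1 and Flt4 lay at 5.47 to 12.3 CPM in mutants and 8.18 to 23.5 CPM in controls, and of the 2 tested Lyve1 was called lower in Dicer iKO (log2 fold change -1.37, SE 0.35, adjusted p = 0.0294) and none in Dgcr8 iKO. The summed perineurial markers were lower in each mutant than in each control of its line (484.4 to 630.0 against 724.1 to 1440 CPM in the Dicer line, 420.3 to 527.8 against 552.3 to 877.1 CPM in the Dgcr8 line). So were the summed SC lineage markers (1085 to 1179 against 1271 to 1724 CPM, and 845.0 to 1176 against 1266 to 1680 CPM). The summed endothelial markers were lower likewise (223.4 to 258.4 against 297.7 to 347.0 CPM, and 256.1 to 317.0 against 320.6 to 400.9 CPM), with 0 of 6 called in either line. Single markers differed from their sums. In Dgcr8 iKO the perineurial marker Cldn1 was called higher (log2 fold change 2.44, SE 0.36, adjusted p = 0.000282) and none lower. In Dicer iKO Itgb4 was called lower (-1.11). Of the lineage markers S100b alone was called lower in Dgcr8 iKO (-1.26), with Sox10 at -0.10 and Erbb3 at 0.50, and none was called in Dicer iKO. Neutrophil and T cell markers were near the lower limit in controls, and in Dgcr8 iKO they summed to 1.65 to 2.33 and 2.45 to 9.87 CPM, against at most 0.134 and 0.623 CPM. The part of these cell contents in the values of the 10 genes was not tested.

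Ratios of 2 genes were taken within each library. The log2 ratio of Axl to Mertk, from CPM + 1, was -0.40 ± 0.31 in uncrushed (SD, n = 3), 0.11 ± 0.19 in contralateral (n = 4) and 1.31 ± 0.18 in crushed nerves (n = 4). It was -0.08 ± 0.14 in Dgcr8 controls and 1.43 ± 0.29 in Dgcr8 iKO (n = 3 each). The lowest crushed and Dgcr8 iKO nerves (1.14 and 1.10) lay above the highest of their controls. In the Dicer line the controls held 2.20, 1.47 and 0.43, enclosing the mutants at 0.86, 1.28 and 1.33. The log2 ratio of Tyro3 to Mertk was -4.16 ± 0.21 in crushed, -4.03 ± 0.24 in contralateral and -4.36 ± 0.13 in uncrushed nerves, which overlapped. Tyro3 lay at 1.56 to 5.69 CPM in these libraries, so the added 1 CPM weighs on the ratio and on its overlap. In Dgcr8 iKO this ratio was -2.32 ± 0.30 against -4.12 ± 0.16 in their controls. In Dicer iKO it was -3.20 ± 0.15, enclosed by their controls at -4.03 to -2.56. The log2 ratio of Gas6 to Pros1 was -2.97 ± 0.16 at 3 dpc against -0.82 ± 0.20 and -0.89 ± 0.31 in contralateral and uncrushed nerves. In Dgcr8 iKO it was -0.47 ± 0.19 against -0.36 ± 0.39, and these overlapped. In Dicer iKO it was 0.15 ± 0.35 against 1.26 ± 0.98, which overlapped as well. The ligand ratio was thus apart from its controls at 3 dpc and in neither mutant. The Axl to Mertk ratio was apart at 3 dpc and in Dgcr8 iKO, but not in Dicer iKO. These ratios are descriptions, with no test.

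**Figure D4:**
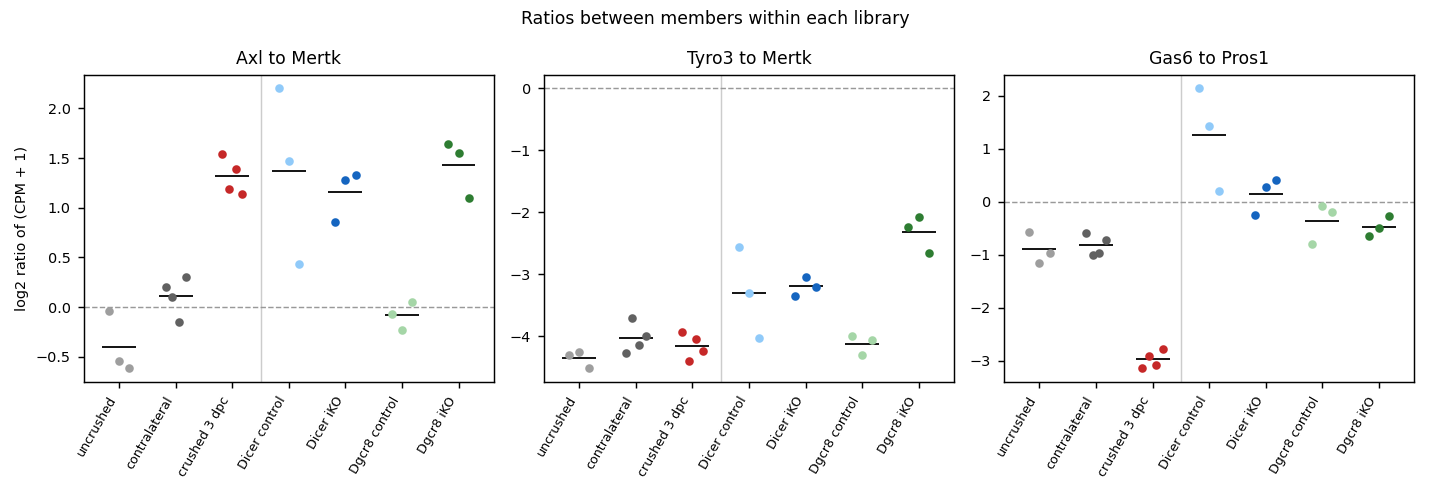
Log2 ratios of (CPM + 1) between TAM receptors and between TAM ligands in each of the 23 libraries, with bars at group means and the dashed line at equal CPM. The Axl to Mertk ratio is about 1.3 at 3 dpc and 1.4 in Dgcr8 iKO, and the Gas6 to Pros1 ratio drops to about -3.0 at 3 dpc alone among the 7 groups.

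The forms of Mfge8 were compared as well. RSEM divided its counts between 2 transcripts, ENSMUST00000032825 and ENSMUST00000107409, which differ inside the gene by 1 coding exon of 111 bases (exon 4 of 10, GRCm38 chr7:79143278-79143388, minus strand). The exon is shown in capitals, with the adjoining 20 bases of the exons on either side in lower case, since the share of this form is what differs between groups.
Mfge8 exon 4: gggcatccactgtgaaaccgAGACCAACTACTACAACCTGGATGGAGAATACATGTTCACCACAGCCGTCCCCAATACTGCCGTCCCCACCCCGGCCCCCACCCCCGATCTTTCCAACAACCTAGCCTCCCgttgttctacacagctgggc
The form with the exon, which adds a stretch rich in proline and threonine to the protein and is known as the long form of Mfge8, had 38.9%, 23.1% and 42.1% of the Mfge8 counts in Dgcr8 iKO and 10.02%, 3.51% and 7.01% in their controls. In Dicer iKO it had 27.3%, 32.2% and 29.2%, against 9.47%, 1.91% and 5.72% in controls. Every mutant nerve lay above every control nerve in both lines. The level of the long form was 17.6 to 59.3 CPM over the 6 mutant nerves and 1.09 to 5.82 CPM over the 6 controls, with no overlap. The form without the exon was at 74.9, 59.7 and 81.5 CPM in Dgcr8 iKO and at 32.1, 40.1 and 37.5 CPM in their controls, also without overlap, while in the Dicer line it was at 46.9, 61.4 and 77.9 CPM against 55.6, 56.0 and 40.6 CPM and overlapped. At 3 dpc the share was 5.61% to 19.0%, within the range of 0% to 27.1% in contralateral nerves. Only 95 to 297 counts stood behind each crush library, against 303 to 1209 in the iKO libraries. The shares are estimates of reads shared between transcripts and were not tested. This pair was singled out after its values were seen, and how many other genes separate likewise in transcript share was not counted. For gene totals, every mutant lay above every control for 29.1% of genes in the Dgcr8 line and 21.7% in the Dicer line.

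**Figure D5:**
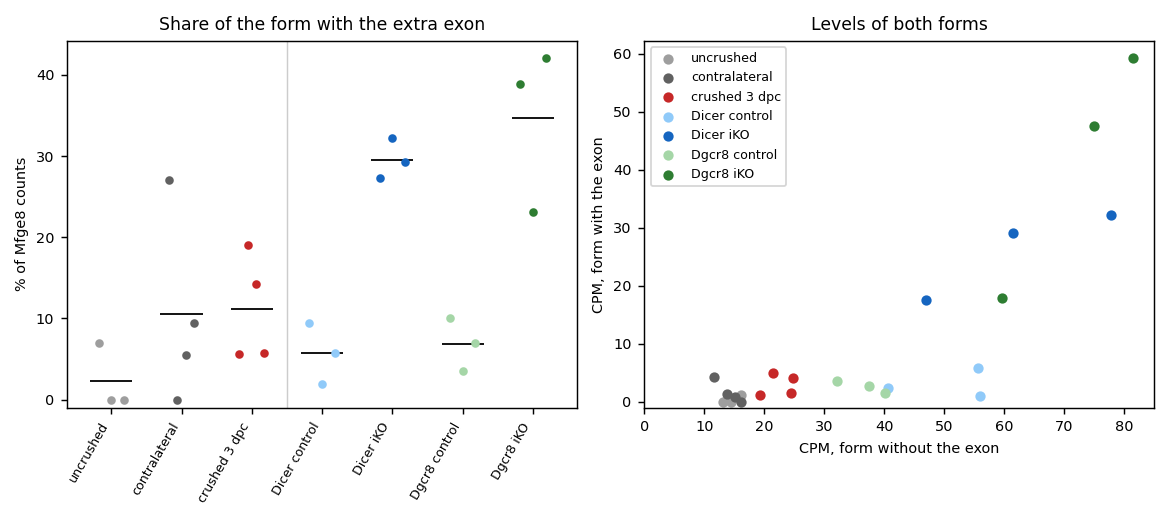
Left, share of Mfge8 counts assigned to the form with the extra exon, in percent, for each of the 23 libraries with bars at group means. Right, CPM of the form with the exon against CPM of the form without it. The 6 mutant nerves lie at 23.1% to 42.1% and the 6 iKO controls at 1.91% to 10.02%.

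RSEM also assigned Axl counts to a transcript of 4265 bases and to another of 3899 bases. The shorter lacks a coding exon of 27 bases (exon 10 of 20, GRCm38 chr7:25773099-25773125, minus strand). Their lengths differ by far more than this exon, so the share of the shorter transcript does not measure the exon alone. The exon is shown in the same way because that share differed in the Dicer line. The Axl pair was likewise singled out after its values were seen.
Axl exon 10: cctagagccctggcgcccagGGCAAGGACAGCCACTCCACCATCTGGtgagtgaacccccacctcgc
The shorter transcript had 17.3%, 11.3% and 12.7% of the Axl counts in Dicer iKO and 6.94%, 8.02% and 7.52% in their controls. In Dgcr8 iKO it had 2.30%, 6.77% and 15.2%, which enclosed the controls at 6.45% to 8.41%. Mertk, Gas6, Pros1 and Megf10 each had most of their counts on 1 transcript in every group, at least 92.7% for Megf10. The 3 Tyro3 transcripts of the crush libraries rested on too few counts to compare.

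Predicted microRNA sites were looked up because the genes deleted in both mutants serve microRNA processing. The seeds (bases 2 to 8, in capitals) of 4 microRNAs present in SN, as given by RefSeq for GRCm38.p6, were matched to the 3′ UTR of the protein-coding transcript with the most counts in the iKO libraries.
let-7f-5p: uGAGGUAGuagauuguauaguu
miR-30a-5p: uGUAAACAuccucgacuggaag
miR-181a-5p: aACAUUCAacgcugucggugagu
miR-10a-5p: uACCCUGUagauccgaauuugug
Sites of 7 bases for let-7f-5p and miR-30a-5p were in none of the 10 genes, beside 9.57% and 15.5% of the 12928 tested genes with a 3′ UTR. A miR-181a-5p site was in Mertk and in Pros1, where there were 2 (17.7% of all genes), and a miR-10a-5p site was in Megf10 (13.4%). The miR-181a-5p sites, capitals marking the 7 matched bases, lie at chr2:128802564-128802570 in Mertk and at chr16:62928823-62928829 and chr16:62929036-62929042 in Pros1, all on the plus strand of GRCm38.
Mertk site: atagcacaacttTGAATGTgatag
Pros1 site 1: gggagcagcacaTGAATGTtgtct
Pros1 site 2: ctataggtggctTGAATGTgattg
Of these genes, Pros1 was called higher in both mutants and Mertk in neither. Of the 7 genes called higher in Dgcr8 iKO, Pros1 and Megf10 hold a match to 1 of the 4 seeds in the window searched. A match or its lack describes the letters only.

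The promoters, from 250 bases before to 50 bases after the start of transcription, were found in RefSeq's table (GRCm38.p6) for 9 of the 10 genes, with Megf10 missing. They were searched on both strands for the AP-1 motif TGANTCA, the PU.1 core GAGGAA, the SOX core ACAAAG and the EGR motif GCGNGGGCG, of which 7.81%, 28.3%, 18.7% and 5.55% of 32851 promoters hold at least 1. No AP-1 motif was in the 9 promoters. The PU.1 core was in 3 of them (Axl, Mfge8 and Stab1), once in each, and Pros1 held 1 SOX core and 1 EGR motif. The promoters of Axl (chr7:25788684-25788983, minus strand), Stab1 (chr14:31168592-31168891, minus strand) and Pros1 (chr16:62854057-62854356, plus strand) are shown with the motifs in capitals, since these 3 genes were called higher at 3 dpc and in Dgcr8 iKO and hold a motif searched.
Axl promoter: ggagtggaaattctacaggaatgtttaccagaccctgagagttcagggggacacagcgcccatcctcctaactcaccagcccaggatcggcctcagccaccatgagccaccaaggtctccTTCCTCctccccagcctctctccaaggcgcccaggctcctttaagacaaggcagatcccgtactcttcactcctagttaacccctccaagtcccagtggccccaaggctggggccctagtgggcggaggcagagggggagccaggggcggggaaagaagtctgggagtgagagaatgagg
Stab1 promoter: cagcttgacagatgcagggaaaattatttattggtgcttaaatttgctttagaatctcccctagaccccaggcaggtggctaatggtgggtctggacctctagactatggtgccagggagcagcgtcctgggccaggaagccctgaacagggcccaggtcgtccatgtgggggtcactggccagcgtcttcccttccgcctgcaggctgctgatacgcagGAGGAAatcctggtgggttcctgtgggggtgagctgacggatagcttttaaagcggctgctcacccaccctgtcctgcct
Pros1 promoter: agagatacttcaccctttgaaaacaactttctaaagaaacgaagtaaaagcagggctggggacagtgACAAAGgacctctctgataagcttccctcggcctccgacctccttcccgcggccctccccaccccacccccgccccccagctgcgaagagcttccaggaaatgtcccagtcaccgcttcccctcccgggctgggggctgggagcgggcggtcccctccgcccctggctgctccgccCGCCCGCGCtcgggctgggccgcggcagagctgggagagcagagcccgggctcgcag
In Axl the match starts 130 bases and in Stab1 30 bases before the start site. The Axl match and the EGR match in Pros1 are on the opposite strand.

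Over the 23 libraries, with values centred within each experiment, Pros1 varied most closely with Megf10 (Pearson's r of log2(CPM + 1) 0.94) and Axl (0.93), and Stab1 with Pros1 (0.92) and Axl (0.90). Mertk followed Axl less closely (0.60) and Gas6 hardly at all (0.01), and Gulp1 had a negative r with each of the other 9, from -0.46 to -0.90. These libraries share the group differences described above, so the values describe the pattern over groups. Among 10105 genes of at least 5 CPM on average in both experiments, the 5 most like Axl were Gab2 (0.98), an adaptor of receptor tyrosine kinases, Dock5 (0.98), Dpysl3 (0.98), Chd3 (0.98) and Extl3 (0.98). The 5 most like Tyro3 were Postn (0.96), an extracellular matrix protein, Traf3 (0.96), Tmem198b (0.95), Col18a1 (0.94) and Serpinh1 (0.94), a collagen chaperone. Those most like Mertk were less close, with Cln8 (0.88), Pxk (0.86), Frmd4a (0.86), Dglucy (0.86) and Mia2 (0.85).

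Other genes of the same pathway were taken as 4 lists. Of all genes tested, 15.3% were called higher against uncrushed and 14.6% against contralateral nerves, 13.4% in Dgcr8 iKO and 7.37% in Dicer iKO. Called lower were 21.1%, 13.6%, 6.99% and 1.64% in that order, and the all-gene medians lay between -0.06 and -0.01. Of 22 other receptors and bridging proteins for dying cells, 11 of 21 tested were called higher and 0 lower at 3 dpc against uncrushed nerves (median log2 fold change 1.08). Against contralateral nerves 10 of 20 were called higher and 1 (Itgb5, an integrin subunit for Mfge8, -1.10) lower. Lgals3, a galectin of phagocytes, led both comparisons (7.11, SE 0.17, and 7.04, SE 0.12), ahead of Thbs1 (3.71 and 3.46), followed by Anxa1 against uncrushed (2.59) and Cd300lb against contralateral nerves (2.84). In the mutants 11 of 20 were called higher and 0 lower in each line, with median log2 fold changes of 1.75 in Dgcr8 iKO and 1.29 in Dicer iKO. These counts and medians include Havcr2 and Cd300lf, which passed the filter only through their levels in the mutants. Both are therefore given by their counts. Havcr2, which encodes the receptor TIM-3, had 131, 100 and 141 counts in Dgcr8 iKO against 0, 0 and 1, a ratio of summed counts per depth of 371.7 with an exact 95% counting interval from 66.3 to 14720. In the Dicer line it had 134, 80 and 160 against 14, 7 and 6 counts (ratio 15.6, interval 10.6 to 24.0). Cd300lf, a phosphatidylserine receptor of myeloid cells, had 75, 34 and 85 counts in Dgcr8 iKO against 0, 3 and 0 (ratio 64.6, interval 21.8 to 316.1). In the Dicer line it had 24, 36 and 71 against 6, 1 and 2 counts (ratio 16.4, interval 8.38 to 36.7). Next came the complement genes C1qc in Dgcr8 iKO (3.40) and C1qb in Dicer iKO (2.62).

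Of 18 genes of the uptake machinery and later steps, 7 were called higher at 3 dpc against uncrushed and 6 against contralateral nerves, 5 in Dgcr8 iKO and 6 in Dicer iKO, and 0 lower in any of these. Abca1, which exports cholesterol, had the highest log2 fold change of this list in every one of the 4 comparisons (5.63, 5.51, 4.49 and 3.13 in the order given, Dgcr8 before Dicer). Dock2 (3.24, 2.99 and, in Dicer iKO, 2.23) and Rac2 (3.01, 2.96 and, in Dgcr8 iKO, 3.06), which serve the actin of blood-derived cells, followed, with Vav1 in both mutants (3.00 and 2.07). The medians of the list were 0.57, 0.35, 0.19 and 0.28, against -0.03, -0.06, -0.01 and -0.01 over all genes tested. The shares of all genes called higher were 15.3%, 14.6%, 13.4% and 7.37% in the same order.

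Of 14 signals on dying and living cells, 5 were called higher against either crush control, 3 in Dgcr8 iKO and 4 in Dicer iKO. Over all genes the shares were 15.3% (uncrushed), 14.6% (contralateral), 13.4% and 7.37%. Panx1, a channel for find-me nucleotides, Cx3cr1, the fractalkine receptor, and P2ry6, a nucleotide receptor of phagocytes, were the 3 highest each time. Panx1 changed by 3.28 and 3.49 at 3 dpc, 3.02 in Dgcr8 iKO and 2.23 in Dicer iKO, Cx3cr1 by 3.15, 3.03, 3.33 and 2.25, and P2ry6 by 2.05, 2.31, 2.10 and 1.57. Cd24a was lower in Dgcr8 iKO (-1.30, SE 0.17, adjusted p = 0.000138).

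Of 13 genes for TAM processing and feedback, 4 were called higher and 2 lower against either crush control. Over all genes, 15.3% (uncrushed) and 14.6% (contralateral) were called higher and 21.1% and 13.6% lower. Socs1 and Socs3, inhibitors of cytokine signalling that TAM receptors induce, changed by 1.995 and 1.89 against uncrushed and by 1.75 and 1.61 against contralateral nerves, and Twist1 by 1.64 and 1.52. Pik3r1, a subunit of PI3-kinase, fell by 2.35 and 2.34 on the log2 scale, and Adam10, a protease that can release Axl from the membrane, fell by 1.51 and 1.67. In the mutants Adam17, the protease that cleaves Mertk, was called higher in Dgcr8 iKO (1.48, SE 0.13, adjusted p = 1.31e-05) and Dicer iKO (1.32, SE 0.11, adjusted p = 0.00134). Socs1 (1.91) and Socs3 (1.001) were called higher in Dgcr8 iKO as well. In the test of the difference between the mutants, 0 genes of the 4 lists were called by edgeR.

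The positions of the 10 genes on GRCm38 bear on how safely their reads can be assigned. Axl (chr7:25757273-25788705), Tyro3 (chr2:119797733-119818104), Pros1 (chr16:62854307-62929346), Mfge8 (chr7:79133768-79149060) and Megf10 (chr18:57133090-57297467) overlap no other annotated gene. Gas6 (chr8:13465374-13494490) overlaps Tmem255b and Stab1 (chr14:31139013-31168641) overlaps Nt5dc2, each on the opposite strand. Mertk (chr2:128698956-128802894), Gulp1 (chr1:44551511-44796838) and Stab2 (chr10:86841198-87008025) have antisense genes. On the same strand, Gulp1 overlaps the annotated genes Gm37626, Gm16102 and Gm38110, and Mertk overlaps the small nucleolar RNA gene Gm23172. Kits that keep the strand were used for all libraries, but the strand setting of the counting is not given in the sources used here.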

How the data were processed

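RNA of whole sciatic nerve pieces was sequenced in 23 samples of 7 groups. The authors trimmed reads with Trimmomatic, aligned them to GRCm38 with STAR and quantified Ensembl transcripts with RSEM. They deposited expected counts per transcript, without normalization, which were here summed per gene and rounded. FPKM as deposited by the authors, which RSEM divides by length and depth, was summed per gene to compare levels between genes. The labels name a SMARTer pico kit for the crush and a TruSeq kit for the iKO libraries, so levels were not compared between experiments. The published methods differ from the labels here, naming only the TruSeq kit. For 1 uncrushed sample the title gives replicate 3 and the description 4, and the former was used.

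Each pair of groups was tested with edgeR 4.0.16 (R 4.3.3): filterByExpr with a minimum count of 10, TMM, the quasi-likelihood F test, Benjamini-Hochberg adjustment over all genes tested, and a call at an adjusted p of at most 0.05 with at least 2-fold change (the difference of the mutants by adjusted p alone). The SE was obtained as log2 fold change over the root of the F statistic. The test was checked on simulated data. Alternatives were RLE normalization, no filter, DESeq2 1.42.0, all groups in one fit, the replicate number as a block, CPM without TMM, and each replicate left out. Contralateral and crushed nerves came from the same mice, but whether equal numbers mark 1 mouse is not stated, and the correlations of same-numbered deviations ran from -0.20 to 0.23 over all comparisons, so no block was used. No 2 libraries were copies, with a chi-square per degree of freedom of at least 4.36 between replicates.

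The 10 genes, the 4 pathway lists and the marker lists were chosen with earlier results of these data known. Named beside the 10 genes were, per list and comparison, the 3 highest and 3 lowest of the genes called, the 5 genes most like each TAM receptor, and markers. Promoters and microRNAs came from RefSeq (GRCm38.p6) and 3′ UTRs and exons from GENCODE M21, whose transcript lengths equalled the deposited ones for 8 of the 10 genes. The transcripts with and without an exon of Axl and Mfge8 were singled out after their values were seen.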

Additional observations from a re-analysis of the deposited data

Results flagged for a closer look

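Of 20 groups of 4 nerves examined (10 genes in the crushed and the contralateral group), 1 held a nerve far from the others. Mfge8 in contralateral nerves was 15.3 CPM in replicate 4 against 16.0 to 16.1 CPM in the other 3, a gap of 0.859 of the group's range. Chance flags about 1 in 20 such groups.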

How the results depend on the processing

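Over all alternatives, 147 of 150 counts of called members stayed within 1.5 times the reported count, and 664 of 702 log2 fold changes kept their sign and their side of the threshold. Members called higher in the difference of the mutants were 0, but 2 with DESeq2 and 0 to 3 with a replicate left out, and the count of members called lower at 3 dpc against uncrushed nerves ran from 0 to 1 (Stab2, which passed the filter without uncrushed replicate 1). Uncalled changes that reversed were, between contralateral and uncrushed nerves, Mfge8 (0.0108 with RLE, 0.0394 without a filter, 0.0118 with DESeq2, 0.00026 with all groups, 0.0160 with the replicate block), Gulp1 (0.0049, 0.0379, 0.0049 and 0.0480 with RLE, no filter, DESeq2 and the block) and Stab1 (-0.12 with the block), and Gas6 in Dicer iKO (0.0011 with the block). With a replicate left out, the ranges were -0.22 to 0.0700 (Tyro3), -0.18 to 0.0924 (Gas6), -0.0902 to 0.14 (Mfge8), -0.11 to 0.17 (Stab1) and -0.0479 to 0.0905 (Gulp1) between the controls, -0.59 to 0.31 for Gas6 in Dicer iKO, -0.27 to 0.0060 for Mertk in Dgcr8 iKO and -0.20 to 0.59 for Stab1 in the difference of the mutants. The cause was not tested.

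Counts over all genes moved as follows. Between contralateral and uncrushed nerves, 13 genes were higher and 128 lower without a filter, and 31, 1 and 6 lower with DESeq2, all groups and the replicate block (0 to 95 with a replicate left out, the 95 without uncrushed replicate 2). In Dicer iKO, 961 higher and 214 lower became 548 and 92 with the block, 515 to 1093 and 57 to 375 with a replicate left out. In the difference of the mutants, 1 and 1 became 17 and 3 without a filter, 170 and 65 with DESeq2, 0 and 0 with the block, 0 lower with RLE, and 0 to 320 and 0 to 81 with a replicate left out, the highest without Dicer control replicate 3. The replicate block changed no call of the 10 genes. Fitting all groups together moved the median of all genes at 3 dpc against uncrushed nerves from -0.03 to -0.20, with Tyro3 at 0.95 and not called, and no filter moved it to -0.39, with Tyro3 called (1.28). Mertk against contralateral nerves was called without a filter (1.08).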
